A study of Rattus norvegicus with 24 samples.

Results

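The genes described here are markers of dividing cells. A list of 44 cell cycle genes was matched to the array through the accession of each probe, and 23 of them had at least 1 named probe (37 probes in all), out of 8945 gene symbols found on the array. These 23 were 4 regulators of the G1 phase (Ccnd1, Cdk4, Cdk2 and Cdkn2c), 8 genes of the S phase, 10 genes of mitosis and Stmn1, which encodes the microtubule regulator stathmin. The other 21, among them Mki67, Top2a, Mcm2 to Mcm6, Bub1, Kif11, Cenpf and Ube2c, had no named probe and were not analysed here. All 23 passed the filter on dim probes in every tissue.

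RNA came from Sprague-Dawley rats of 12 weeks and was hybridised to one-colour Agilent arrays, which report the brightness of 1 dye (Cy3) at each probe. Prostate, skin and forebrain came from males castrated 3 days earlier, and ovary from intact females. Both sexes had received 1 intraperitoneal injection of vehicle or of 10 mg/kg dihydrotestosterone (DHT), the potent androgen made from testosterone, and tissues were taken 16 h later. The design text speaks of castrated males throughout, and the groups here follow the sample labels, which give intact females for ovary. Each of the 8 groups had 3 arrays, called biological replicates in the design text. No label ties a sample to an animal, so the p-values reflect only how far these samples scatter, which may be technical. Forebrain vehicle array 3 failed quality control according to its label and was left out, which left 23 arrays. Castration itself had no control group here, since all males were castrated, and a 3-day castrate prostate is a regressing gland.

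A dividing cell passes from G1, where cyclin D1 with Cdk4 and later cyclin E with Cdk2 release the E2F factors, into S phase, where DNA is copied, and then into mitosis. E2F factors drive transcription of many S phase genes, such as those of replication proteins and of the enzymes that make nucleotides. Mitosis genes peak later, in G2 and M, and are controlled by the DREAM and MuvB complexes with B-Myb and FoxM1, which act through a promoter element called CHR, and by NF-Y, which binds CCAAT boxes. In prostate, androgen is needed for the survival of luminal cells and lets a regressed gland regrow. In skin most dividing cells lie in the hair matrix and in basal epidermis, in ovary in the granulosa of growing follicles, and the adult forebrain has few dividing cells.

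Levels are log2 of the background-subtracted spot brightness minus the 75th percentile of the same array, so that a level of 0 is the brightness of that percentile. A level ranks the same probe across arrays and is not compared between genes. On the 23 arrays, 54.6% to 97.0% of the probes were well above background. Ovary vehicle arrays 1 and 3 had a compressed range, with interquartile ranges of 3.79 and 3.21 log2 units against 6.15 on ovary vehicle array 2. Each slide carried 1 array of each tissue, and every slide was either all vehicle (3 slides) or all DHT (3 slides), so an effect of slide and an effect of DHT cannot be told apart within a tissue. Each tissue was fitted alone with limma, and a gene was called at an adjusted p under 0.05 over all genes tested.

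The first question was which cell cycle genes DHT changed in each tissue. In prostate, the 10 mitosis genes had negative values, the S phase genes ran from Rrm2 at -2.22 to Fen1 at 0.58 and the G1 regulators lay near 0, and no member passed the adjusted threshold. Among the members, 19 of 23 had a negative log2 fold change and 4 a positive one (44.7% and 55.3% of all 23738 genes tested), with a median of -0.59 against 0.06 for all genes. The adjusted threshold was passed by 0 of 23 members, while 4.61% of all genes passed it as lower and 5.03% as higher with DHT. At an unadjusted p under 0.05, 10 members were lower and 1 was higher, against 12.9% and 14.8% of all genes. The DHT arrays lay wholly below the vehicle arrays for 11 members and wholly above for 2, against 16.5% and 19.3% of all genes. In whole-tissue RNA, fewer dividing cells and less of these transcripts per cell cannot be told apart.

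All 10 mitosis genes had a negative value in prostate, with a median of -1.33. Ccna2, which encodes cyclin A2, the partner of Cdk2 and Cdk1 in S and G2, had levels of 0.39, -0.50 and -0.82 on vehicle and -2.54, -3.81 and -1.36 on DHT arrays. Ccnb1, which encodes cyclin B1, the activator of Cdk1 at the entry into mitosis, had 1.38, 0.60 and 0.70 on vehicle and -0.50, -1.34 and 0.02 on DHT arrays. Both cyclins were separated between the groups, with DHT array 3 nearest to vehicle. The log2 fold change of Ccna2 was -2.26 ± 0.64 (SE, n = 3 each), 4.79-fold lower, with an adjusted p of 0.0770 in limma. That of Ccnb1 was -1.5 ± 0.39, 2.83-fold lower, with an adjusted p of 0.0625.

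Pttg1, which encodes securin, the inhibitor that holds back separase until anaphase, had levels of 3.09, 2.77 and 2.54 on vehicle and 1.64, 0.89 and 2.14 on DHT arrays in prostate. The polo-like kinase gene Plk1 had 2.0, 1.49 and 1.12 on vehicle and 0.17, -0.69 and 0.88 on DHT arrays. Cdk1, the kinase that drives mitosis, had 2.33, 1.87 and 1.35 on vehicle and 0.64, 0.37 and 1.35 on DHT arrays. Pttg1 and Plk1 were well separated, while the highest DHT level of Cdk1 all but touched its lowest vehicle level. Their log2 fold changes were -1.24 ± 0.34 (adjusted p 0.0690), -1.42 ± 0.43 (adjusted p 0.0905) and -1.07 ± 0.34 (adjusted p 0.105), in that order. A second probe of Plk1 gave -1.63 ± 0.39, with an adjusted p of 0.0505 over all probes tested, the nearest to the threshold of any member probe in prostate.

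Ccnb2 (cyclin B2) had levels of -0.72, -1.52 and -1.91 on vehicle and -2.97, -3.43 and -2.13 on DHT arrays, a log2 fold change of -1.46 ± 0.43 with an adjusted p of 0.0841. Aurkb, the kinase that corrects attachments of chromosomes to the spindle, had -2.20, -2.75 and -2.39 on vehicle and -4.55, -4.91 and -2.97 on DHT arrays, and was not well above background on DHT array 2. Its value was -1.70 ± 0.50 with an adjusted p of 0.0862. The other mitosis genes, Birc5, Cdc20 and Aurka, had values from -0.70 to -0.59, and the groups overlapped for Birc5 and Cdc20. The 10 mitosis genes shared their extreme arrays. Vehicle array 1 was the highest of all arrays for 10 of 10, DHT array 2 the lowest for 9, and DHT array 3 the highest of the DHT arrays for 9. Without DHT array 3, 3 members were called: Rrm2 (adjusted p 0.0352), Ccna2 (0.0465) and Aurkb (0.0241), in a fit that called 4.26% of all genes.

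The S phase genes of prostate were split. Rrm2, which encodes the small subunit of ribonucleotide reductase, the enzyme that makes deoxynucleotides, had levels of -1.02, -1.74 and -1.98 on vehicle and -3.86, -4.87 and -2.66 on DHT arrays. Its log2 fold change of -2.22 ± 0.57 (4.65-fold lower) had an adjusted p of 0.0601, and it was not well above background on DHT array 2. Fen1, the flap endonuclease that trims Okazaki fragments, went the other way, with 4.24, 4.35 and 4.44 on vehicle and 4.95, 4.79 and 5.01 on DHT arrays. Its value of 0.58 ± 0.15 had the lowest adjusted p of any member in prostate, 0.0584, and was positive on both of its probes.

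The remaining S phase genes lay between. Pcna, the sliding clamp of DNA polymerases, had 1.67, 1.66 and 1.35 on vehicle and 0.78, 1.16 and 1.47 on DHT arrays, overlapping groups with a value of -0.42 ± 0.22. Rrm1, the large subunit of ribonucleotide reductase, had 0.02 and -0.18 on vehicle and -0.96, -0.36 and -0.47 on DHT arrays, because its spot on vehicle array 3 was marked as an outlier and dropped. Its value was -0.52 ± 0.24, with an adjusted p of 0.239. Tyms (thymidylate synthase), Prim1 (a primase subunit), Mcm7 (a subunit of the replicative helicase) and Dut (which breaks down dUTP) had values from -0.56 to 0.04. The median of the 8 S phase genes was -0.37, but -0.24 without DHT array 1 and -0.20 with the mean of all kept probes of a gene.

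The G1 regulators of prostate had values from -0.26 (Ccnd1) to 0.26 (Cdk2). Ccnd1, cyclin D1, had 3.42, 3.98 and 3.54 on vehicle and 3.89, 3.26 and 3.02 on DHT arrays. Cdk4, its kinase, had 2.31, 1.78 and 1.96 on vehicle and 1.45, 2.02 and 1.83 on DHT arrays. Both overlapped between the groups, and their 95% confidence intervals ran from -0.92 to 0.40 and from -0.78 to 0.28, which leaves room for either direction. Stmn1 had a value of -0.93 ± 0.28 (adjusted p 0.0930) and separate groups. Markers of other cell types are given as the mean over a list of each marker's difference from its own mean in the tissue. The 4 tested markers of prostate luminal cells were at -1.16, -0.93 and -0.44 on vehicle and 0.81, 1.45 and 0.75 on DHT arrays, separate groups that ran opposite to the mitosis genes. Of these 4, 3 had positive values with a list median of 0.93. With DHT, Pbsn was called higher (5.85 ± 0.31) and Krt8 lower (-0.99 ± 0.21), so the mean leaned on Pbsn. Krt18 and Sbp had no usable spot on DHT array 2, where the mean was that of Pbsn and Krt8 alone. The luminal markers Tgm4 and Msmb were not well above background on any prostate array. Skeletal muscle markers were separate too, at -0.50, -0.31 and -0.27 on vehicle and 0.61, 0.39 and 0.08 on DHT arrays, while those of fibroblasts and smooth muscle (-0.09, 0.03 and -0.62 against 0.44, 0.48 and -0.42) overlapped. Of these 2 lists 4 of 6 and 4 of 5 tested markers had positive values, with medians of 0.68 and 0.41, and none was called. Of 4 tested keratinocyte markers 3 had negative values and 1 a positive one, with a median of -0.11. Only 1 of them was called, Krt14, a keratin of basal cells, lower at -1.18 ± 0.23 (adjusted p 0.0301, limma). The part of cell composition in the prostate values was not tested.

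**Figure D1:**
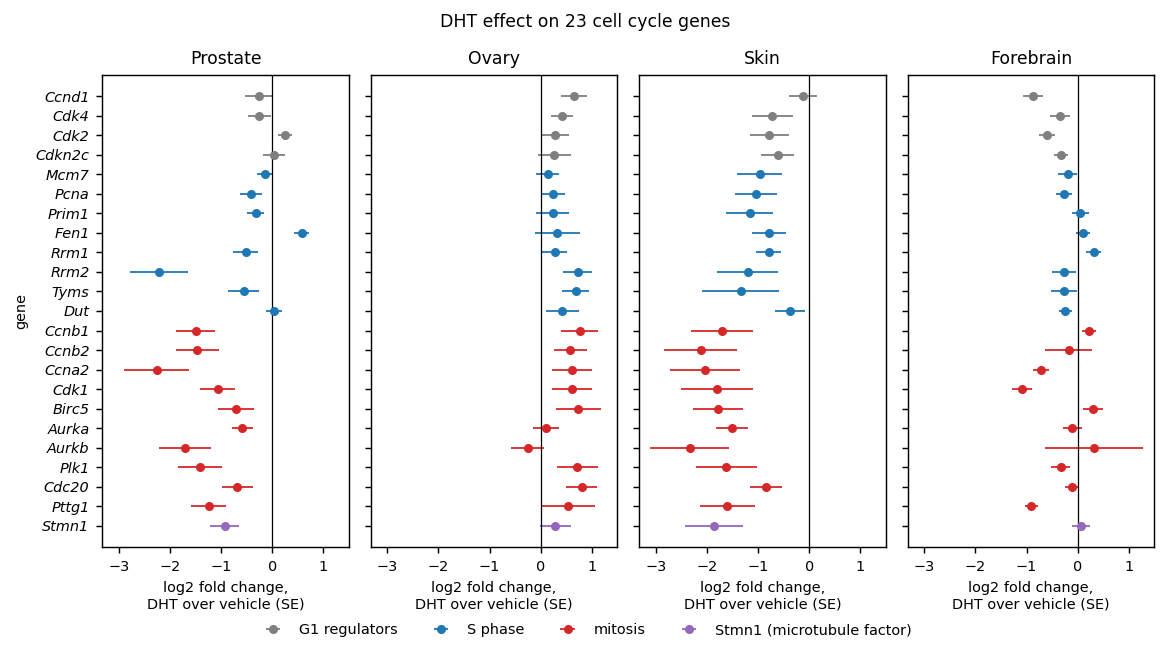
Log2 fold change of DHT over vehicle (x axis, bars are limma standard errors) for the 23 cell cycle genes (y axis) in 4 tissues, coloured by role. In prostate and skin the 10 mitosis genes all lie left of 0, in ovary 9 of 10 lie right of 0, and in forebrain 7 of 10 lie left of it. The skin points of Rrm2, Ccnd1 and Prim1 come from another probe than in the other tissues.

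In skin, the values of all 23 members were negative, and mitosis genes again had the larger ones. No gene of the 24122 tested in skin passed the adjusted threshold (0%), members included, and the lowest adjusted p of a member was 0.752. The median of the members was -1.20 against 0.05 for all genes, of which 46.2% had a negative and 53.8% a positive value. At an unadjusted p under 0.05, 14 of 23 members were lower and 0 higher, against 2.56% and 2.38% of all genes. The groups were separate with DHT lower for 16 members and with DHT higher for 0, against 6.19% and 6.07%. These are counts of genes measured on the same 6 arrays, and 1 array weighed on all of them, as the array values show.

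The 10 mitosis genes of skin were separated between the groups in 10 of 10 cases, with a median of -1.74. Aurka, a kinase of the spindle poles, had -0.27, -0.72 and -0.31 on vehicle and -2.43, -1.79 and -1.62 on DHT arrays. Birc5, which encodes survivin, a partner of Aurkb, had 2.0, 1.54 and 1.71 on vehicle and -1.07, 0.76 and 0.23 on DHT arrays. Aurkb had -0.88, -2.10 and -1.64 on vehicle and -5.54, -2.55 and -3.55 on DHT arrays, the first of these not well above background. The DHT arrays lay below vehicle in each, and DHT array 1 was the lowest. The log2 fold changes were -1.51 ± 0.31 for Aurka, -1.78 ± 0.49 for Birc5 and -2.34 ± 0.77 for Aurkb (SE, n = 3 each), with adjusted p of 0.752 in limma.

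Pttg1 had 3.75, 3.47 and 3.67 on vehicle and 0.87, 3.03 and 2.17 on DHT arrays in skin. Ccnb2 had 0.80, 0.21 and 0.19 on vehicle and -3.39, -0.59 and -1.19 on DHT arrays, the first again not well above background. Ccna2 had 2.35, 1.53 and 2.08 on vehicle and -1.60, 1.1 and 0.34 on DHT arrays. In these and in Cdk1 (4.11, 3.54 and 4.13 on vehicle, 0.50, 3.35 and 2.51 on DHT arrays), DHT array 2 was the closest to the vehicle arrays and DHT array 1 the farthest below them. Their values ran from -2.12 ± 0.71 for Ccnb2 to -1.61 ± 0.54 for Pttg1. Stmn1, with 4.92, 4.76 and 4.27 on vehicle and 1.54, 3.70 and 3.13 on DHT arrays, followed the mitosis genes at -1.86 ± 0.57.

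The 8 S phase genes of skin had a median of -1.01, from -1.34 for Tyms to -0.38 for Dut. Rrm1 had -0.03, -0.37 and -0.28 on vehicle and -1.16, -0.90 and -1.0 on DHT arrays. Pcna had 3.33, 2.66 and 2.70 on vehicle and 1.15, 2.46 and 1.95 on DHT arrays. The Rrm1 arrays kept close together within each group, so that its value of -0.79 ± 0.24 had a smaller error than that of Pcna, -1.04 ± 0.41. Rrm2 was represented in skin by probe A_43_P17490, not by the probe of the other tissues. It overlapped, with -0.22, -0.27 and 1.07 on vehicle and -2.07, -0.13 and -0.82 on DHT arrays, and its value was -1.20 ± 0.60. Among the G1 regulators the groups overlapped in 4 of 4 cases. Cdk4 had 3.19, 2.62 and 2.39 on vehicle and 1.31, 2.43 and 2.29 on DHT arrays, with a value of -0.72 ± 0.40. Ccnd1 had 3.48, 3.56 and 3.87 on vehicle and 3.51, 3.80 and 3.21 on DHT arrays, with a value of -0.13 ± 0.28, the nearest to 0 of any member in skin.

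DHT array 1 was the lowest of the 6 skin arrays for 19 of 23 members, and DHT array 2 the highest DHT array for 21. DHT array 1 was also the dimmest skin array, with a 75th percentile of 5.80 log2 units. That percentile was 7.49 and 7.67 on the other DHT arrays and 8.57, 6.25 and 7.18 on vehicle arrays. Markers of the hair matrix, the dividing base of the hair follicle, were lowest on DHT array 1 too: their mean difference from the tissue mean was -2.88 there, against 0.04 and 0.24 on the other DHT arrays and 1.4, 0.20 and 1.01 on vehicle arrays. Of 5 tested hair matrix markers 5 had a negative value. Keratinocyte markers had positive values in 4 of 4 cases, with a median of 0.58, and overlapped at -0.23 to 0.59 on DHT and -0.78 to 0.36 on vehicle arrays. None of these markers was called. Without DHT array 1 the median of the members was -0.72, that of the S phase genes -0.65 and that of the mitosis genes -1.16, and all 23 values were still negative. With normexp background correction the medians were -0.72 for all members and -0.63 for S phase genes. Skin vehicle array 1 had skeletal muscle markers at -9.58 relative to the tissue mean, against 1.72 and 1.69 on the other vehicle arrays, and without it the member median was -1.15. The parts of hair follicle content and of array brightness in the skin values were not tested.

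In ovary, from intact females, the members lay somewhat higher with DHT than on vehicle, opposite to prostate and skin of castrated males. Of 23 members, 22 had a positive log2 fold change and 1 a negative one, against 33.6% and 66.4% of all 29400 genes tested, with a median of 0.42 against -0.23 for all genes. No gene passed the adjusted threshold in either direction (0%), and the lowest adjusted p of a member was 0.475. At an unadjusted p under 0.05, 4 members were higher and 0 lower, against 0.265% and 10.2% of all genes. The groups were separate with DHT higher for 5 members and with DHT lower for 0, against 2.7% and 11.1%. With quantile normalization in place of the 75th percentile, the median of all ovary genes was 0.09 and that of the members 0.34, so that the distance between both shrank from 0.65 to 0.25.

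Cdc20, the activator of the ubiquitin ligase that starts anaphase, had 0.83, 1.36 and 1.74 on vehicle and 2.30, 1.95 and 2.09 on DHT arrays in ovary, a value of 0.80 ± 0.30. Ccnd1, the D cyclin of G1, had 1.83, 2.42 and 2.24 on vehicle and 2.84, 2.88 and 2.73 on DHT arrays, a value of 0.65 ± 0.25. Tyms had -1.22, -1.43 and -1.92 on vehicle and -0.89, -0.79 and -0.84 on DHT arrays, a value of 0.68 ± 0.26. In these 3 genes the lowest DHT level exceeded the highest vehicle level. Rrm2 was separated too, with -1.87, -1.52 and -1.20 on vehicle and -0.60, -1.16 and -0.68 on DHT arrays and a value of 0.72 ± 0.29. The adjusted p of the 4 genes was 0.475 or 0.476 in limma.

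The other mitosis genes of ovary overlapped between the groups. Cdk1 had 2.13, 2.95 and 3.43 on vehicle and 3.66, 3.07 and 3.61 on DHT arrays, a value of 0.61 ± 0.40. Ccna2 had -0.43, 0.13 and 0.82 on vehicle and 1.01, 0.35 and 1.0 on DHT arrays, a value of 0.62 ± 0.40. Vehicle array 1 was the lowest array for both, as it was for 17 of 23 members. Rrm1 had 0.44, 0.10 and -0.02 on vehicle and 0.39, 0.63 and 0.31 on DHT arrays, a value of 0.27 ± 0.24. Pcna, with 1.45, 1.82 and 1.93 on vehicle and 1.92, 2.04 and 1.98 on DHT arrays, had a value of 0.25 ± 0.23. Cdk4, with 2.50, 2.43 and 2.23 against 2.77, 2.88 and 2.75, had a value of 0.41 ± 0.21 and separate groups. A second probe of Cdk4 had 0.08 ± 0.21, with overlap. Aurkb was the exception of the list, at -0.25 ± 0.32, with 0.54, 0.17 and -0.06 on vehicle and -0.39, 0.47 and -0.18 on DHT arrays.

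The medians of ovary depended on the 2 compressed vehicle arrays. Without vehicle array 1 the median was 0.26 for all members, 0.12 for S phase genes and 0.30 for mitosis genes. Without vehicle array 3 the S phase and mitosis medians were 0.47 and 0.95. Without both, 20 of 23 members were positive and the median was 0.34, against 0.02 for all genes. Granulosa markers overlapped, at -0.03, 0.28 and -0.11 on vehicle and 0.19, -0.58 and 0.26 on DHT arrays. Leukocyte markers, 7 of 7 with negative values, were separate, at 0.64, -0.27 and 1.17 on vehicle and -0.46, -0.41 and -0.68 on DHT arrays. Skeletal muscle markers, 6 of 7 negative, were separate too, at 0.50, 0.11 and 0.80 on vehicle and -0.79, -0.61 and -0.01 on DHT arrays. Hair matrix markers (5 of 5 negative) overlapped, at 1.83, -1.19 and 2.36 on vehicle and -1.06, -0.63 and -1.31 on DHT arrays. Neuron markers (6 of 6 negative) overlapped, at 1.26, -1.07 and 1.98 against -1.46, 0.47 and -1.17. The leukocyte, muscle, hair matrix and neuron lists were all highest on the compressed vehicle arrays 1 and 3, and 66.4% of all genes had negative values. The part of the compressed arrays in these marker values, and of cell content in the ovary values, was not tested.

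In forebrain no member was called, and the largest negative values were those of 3 mitosis genes and 2 G1 regulators. No gene of the 26361 tested passed the adjusted threshold (0%). The members had a median of -0.24 against -0.02 for all genes, with 16 of 23 negative and 7 positive, against 52.2% and 47.8% of all genes. At an unadjusted p under 0.05, 5 members were lower and 0 higher, against 14.7% and 12.7% of all genes, and 8 were separated with DHT lower and 2 with DHT higher, against 24.2% and 23.1%. With 2 vehicle and 3 DHT arrays separation comes easily, as the shares of all genes show. Members were separated more often downward than upward, while the 2 shares of all genes were nearly even.

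Pttg1 had 0.44 and 0.43 on vehicle and -0.44, -0.37 and -0.60 on DHT arrays of forebrain. Cdk1 had -1.01 and -1.47 on vehicle and -2.18, -2.49 and -2.31 on DHT arrays. Ccna2 had -3.52 and -3.42 on vehicle and -4.0, -4.21 and -4.38 on DHT arrays. In all 3 the groups stood apart by more than the spread within either. Their log2 fold changes were -0.91 ± 0.13, -1.09 ± 0.19 and -0.72 ± 0.16 (SE, n = 2 and 3), with adjusted p of 0.0715, 0.0715 and 0.0813 in limma. The other mitosis genes had values from -0.33 for Plk1 to 0.32 for Aurkb, and Ccnb2 and Aurkb were not well above background on at least 1 array of each group.

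Of the 4 G1 regulators of forebrain, all had negative values and separate groups, with a median of -0.47. Ccnd1 had 2.81 and 2.54 on vehicle and 1.97, 1.91 and 1.52 on DHT arrays, a value of -0.87 ± 0.19 with an adjusted p of 0.0824. A second, dimmer probe of Ccnd1 had -0.38 ± 0.17, with separate groups. Cdk2, the kinase of the step from G1 to S, had -1.19 and -1.36 on vehicle and -1.83, -1.74 and -2.07 on DHT arrays, a value of -0.60 ± 0.16 with an adjusted p of 0.0967. A second, dimmer probe of Cdk2 had 0.04 ± 0.39, with overlap. Cdk4, with 1.08 and 0.56 on vehicle and 0.41, 0.52 and 0.50 on DHT arrays, had a value of -0.35 ± 0.19. The S phase genes ranged from -0.27 (Tyms) to 0.31 (Rrm1), and Pcna, with 0.99 and 1.29 against 1.0, 0.78 and 0.85, overlapped at -0.26 ± 0.15. Rrm1 had -1.06 and -0.90 on vehicle and -0.81, -0.67 and -0.54 on DHT arrays, a separation upward of 0.31 ± 0.14. Rrm2 had -4.72 and -4.76 on vehicle and -4.72, -4.88 and -5.41 on DHT arrays, with overlap and a value of -0.27 ± 0.23. Several marker lists were separate between the groups of forebrain, though none of their genes was called. Skeletal muscle markers were at 1.39 and 1.32 on vehicle and -0.60, -1.74 and -1.73 on DHT arrays (6 of 7 negative values), and markers of fibroblasts and smooth muscle at 0.30 and 0.27 against -0.18, -0.21 and -0.46 (5 of 5 negative). Neural progenitor markers were at 0.36 and 0.04 on vehicle and -0.12, -0.13 and -0.35 on DHT arrays (3 of 4 negative). Neuron markers ran the other way in 7 of 7 cases, at -0.24 and -0.32 on vehicle and 0.18, 0.31 and 0.34 on DHT arrays. The part of tissue content in the member values of forebrain was not tested. Without forebrain vehicle array 2 the median was -0.04 for S phase genes and -0.53 for mitosis genes, and with array weights the mitosis median was -0.35.

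The list was also divided to set S phase against mitosis. The median of the mitosis genes lay 0.96 log2 units below that of the S phase genes in prostate and 0.74 below it in skin, while it lay 0.31 above it in ovary and 0.07 above it in forebrain. In prostate and skin the mitosis genes thus had the larger negative values, and in ovary the larger positive ones. The contrast was also taken array by array. Each gene was set relative to the mean of its group means in a tissue, the genes of a role were averaged, and the S phase average was taken from the mitosis average. In prostate this difference was 0.71, 0.29 and 0.25 on the vehicle arrays and -0.23, -0.90 and -0.09 on the DHT arrays, with Rrm1 missing from vehicle array 3. In skin it was 0.48, 0.30 and 0.39 on vehicle and -0.88, -0.10 and -0.19 on DHT arrays. The groups did not overlap in these 2 tissues. In ovary it was -0.33, 0.03 and 0.10 on vehicle and 0.15, -0.16 and 0.22 on DHT arrays, and in forebrain 0.38 and -0.21 on vehicle and -0.01, -0.23 and -0.01 on DHT arrays, with overlap in both. These averages are a description, with no test over the list.

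**Figure D2:**
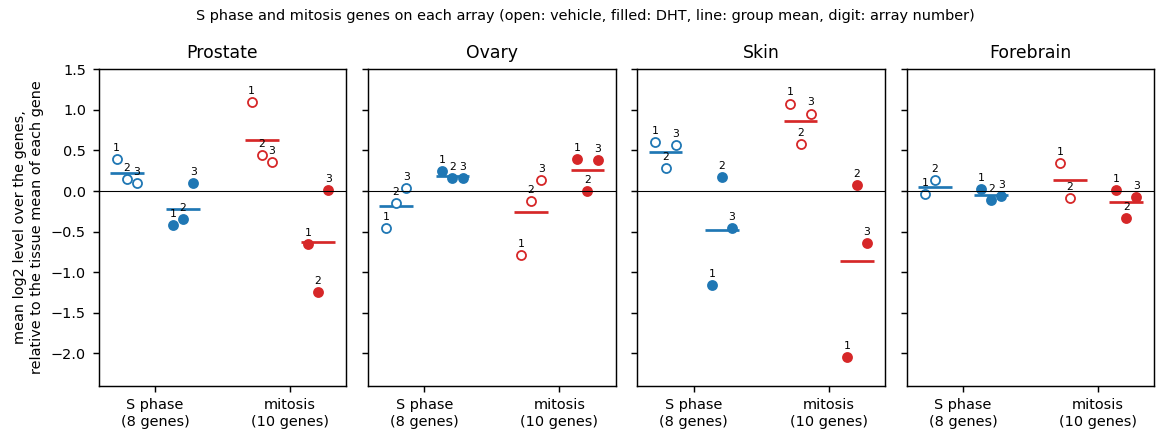
Mean log2 level of the 8 S phase genes (blue) and the 10 mitosis genes (red) on each array, relative to the tissue mean of each gene (y axis), for vehicle (open) and DHT (filled) arrays, with lines at the group means and digits for array numbers. The lowest point is skin DHT array 1 for mitosis genes at -2.04, and prostate DHT array 2 is the next lowest for them at -1.25.

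Whether the effect of DHT differed between the tissues was tested in 1 fit of all 23 arrays, with slide as a random block (correlation 0.0777). Ovary alone came from intact females, so in any comparison with ovary the tissue cannot be told apart from sex and castration. The moderated F test called 1 of 23 members, Aurka, against 1.83% of 33846 genes. Its log2 fold change was -0.59 in prostate, 0.10 in ovary, -1.51 in skin and -0.10 in forebrain, and its adjusted p was 0.0426. No single pair of tissues was called for Aurka, and its widest difference, ovary minus skin, was 1.62 ± 0.33 (SE) with an adjusted p of 0.0815. Of the 23 fits that left out 1 array, 18 called no member, and the fit without the slide block called none either (1.18% of all genes). The 23 fits called from 0.683% to 30.3% of all genes.

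Among the pairs of tissues, ovary and skin lay farthest apart. The difference of ovary minus skin was positive for 23 of 23 members with a median of 1.65, against -0.52 for all genes, and 22 had an unadjusted p under 0.05, against 25.1% of all genes. No gene of the array passed the adjusted threshold for this pair (0%). Prostate minus ovary had a median of -1.21 over the members, with 12 at an unadjusted p under 0.05 against 18.2% of all genes, and 0 called against 1.37%. The lowest adjusted p among the members in that pair was 0.0697, for Cdc20, whose difference was -1.48 with a 95% interval from -2.31 to -0.65. Prostate minus skin had a median of 0.64 with 4 members at an unadjusted p under 0.05 (13.3% of all genes) and 0 called (1.65%). For Rrm2 the difference of prostate minus skin was -0.40 with an interval from -2.09 to 1.29, and for Ccnb1 0.21 with an interval from -1.18 to 1.60, intervals too wide to say that prostate and skin respond alike. The fit of all arrays took probe A_44_P992578 for Rrm2 in both tissues, while the fit of skin alone took A_43_P17490. Against forebrain, prostate, ovary and skin had 4, 4 and 8 members at an unadjusted p under 0.05 (12.5%, 18.2% and 10.4% of all genes) and 0 called (0.925%, 0.0177% and 0%).

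The genes of ribonucleotide reductase and Ccna2 had several probes, all of which are given here by their array identifiers. Rrm1 had 3, and in prostate they had values of -0.52 ± 0.24 (A_44_P148161), -0.47 ± 0.25 (A_44_P299721) and -0.46 ± 0.27 (A_44_P299722). In skin the same probes had -0.79 ± 0.24, -0.44 ± 0.42 and -0.53 ± 0.33, and in forebrain 0.31 ± 0.14, 0.67 ± 0.12 and 0.37 ± 0.12. The sign was shared by all 3 probes in each of these tissues. In ovary they disagreed, at 0.27 ± 0.24, -0.38 ± 0.40 and -0.80 ± 0.33, and the positive one is the brightest, which represents the gene.

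Rrm2 had 2 probes. A_44_P992578 and A_43_P17490 had values of -2.22 ± 0.56 and -1.68 ± 0.54 in prostate and of -1.82 ± 0.70 and -1.20 ± 0.60 in skin. On vehicle arrays of prostate the second probe was at -3.11, -3.49 and -3.03, and on DHT arrays at -5.23, -5.81 and -3.62, separate groups as with the first. In ovary they had 0.72 ± 0.29 and -0.13 ± 0.46 and in forebrain -0.27 ± 0.23 and 0.31 ± 0.85, opposite signs in both. The second probe was dim in forebrain, well above background on 3 of 5 arrays.

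Ccna2 had 2 probes as well. A_44_P527480 and A_43_P15962 had -2.26 ± 0.64 and -2.07 ± 0.57 in prostate, -2.04 ± 0.68 and -1.53 ± 0.47 in skin, and 0.62 ± 0.39 and 0.02 ± 0.36 in ovary. In forebrain A_43_P15962 did not pass the filter on dim probes, and A_44_P527480 had -0.72 ± 0.16. Both probes therefore placed the gene lower with DHT in prostate and skin. Over the 13 members with several probes, all probes shared a sign for 12 in prostate (not Ccnd1), 11 in ovary (not Rrm1 and Rrm2) and 13 in skin. In forebrain they did for 8 of the 12 that kept several, and not for Cdk2, Dut, Pcna and Rrm2. A dimmer probe of Fen1, A_44_P418824, had 0.97 ± 0.13 in forebrain, with levels of -2.64 and -2.75 on vehicle and -1.85, -1.68 and -1.64 on DHT arrays. The brighter probe there had 0.10 ± 0.13.

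**Figure D3:**
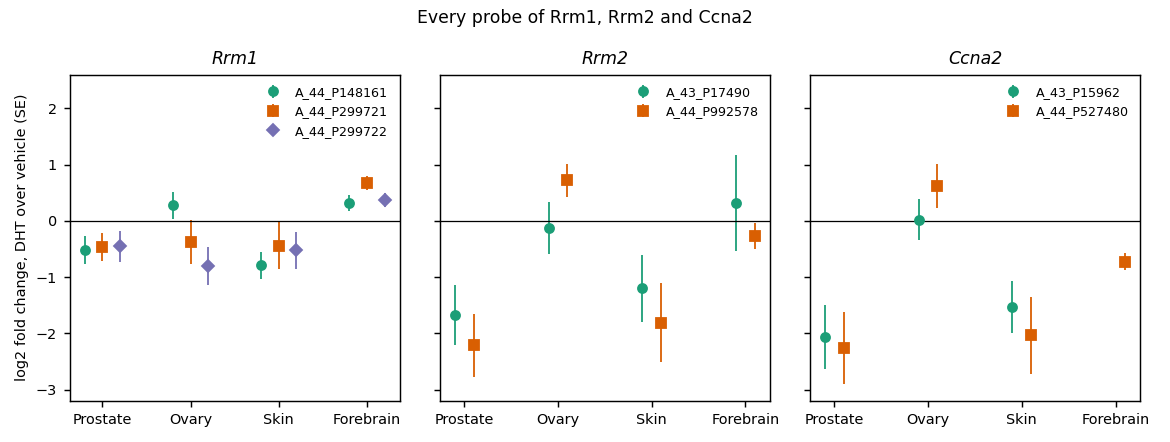
Log2 fold change of DHT over vehicle (y axis, bars are limma standard errors) for each probe of Rrm1, Rrm2 and Ccna2 in 4 tissues (x axis). All probes lie below 0 in prostate and skin, and the Rrm1 and Rrm2 probes fall on both sides of 0 in ovary.

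The levels of the members on vehicle arrays were compared between tissues over 11 arrays, with slide as a random block. Here too ovary alone came from intact females, and its arrays included the compressed vehicle arrays 1 and 3. The moderated F test called 21 of 23 members, against 66.5% of 31602 genes. The 2 not called were Prim1 (adjusted p 0.253) and Fen1 (adjusted p 0.449). The mitosis genes were lowest in forebrain in 10 of 10 cases and highest in skin in 8. Cdk1 was at 3.93 ± 0.33 in skin, 2.84 ± 0.66 in ovary, 1.85 ± 0.49 in prostate (SD, n = 3 each) and -1.24 ± 0.33 in forebrain (n = 2). Skin and ovary did not pass the threshold for Cdk1 (adjusted p 0.0540), nor did ovary and prostate (0.0903), while forebrain differed from each of the others.

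Aurka and Aurkb were highest in ovary, at 0.63 ± 0.32 and 0.22 ± 0.30. They were at -0.43 ± 0.25 and -1.54 ± 0.62 in skin and at -1.32 ± 0.26 and -2.44 ± 0.28 in prostate. Ovary differed from skin and from prostate for both (adjusted p 0.0134 and 0.0093 against skin). Between ovary and skin, 2 mitosis genes were called higher in ovary and 4 lower. These stood against 23.2% and 13.2% of all genes. Between prostate and skin 7 mitosis genes were called lower in prostate and 0 higher, against 21.3% and 19.9% of all genes. Between prostate and ovary 2 were called lower in prostate and 0 higher, against 18.4% and 9.51%. The median of prostate minus ovary was -0.54 over all genes and -0.70 over the mitosis genes, with the compressed ovary arrays included.

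Among the S phase genes, Rrm2 (probe A_44_P992578) was at -1.58 ± 0.50 in prostate, -1.53 ± 0.34 in ovary and -1.01 ± 0.49 in skin, which did not differ at the threshold. In forebrain it was at -4.74 ± 0.03, which differed from each. The other Rrm2 probe, A_43_P17490, had vehicle means of -3.21 in prostate, -3.02 in ovary, 0.19 in skin and -5.41 in forebrain. By that probe skin stood above prostate and ovary, so the likeness of these tissues depended on the probe. Its differences between tissues were not tested. Tyms was lowest in forebrain too, at -4.56 ± 0.41. Fen1 was at 4.34 ± 0.10, 3.76 ± 0.85, 4.05 ± 0.20 and 4.25 ± 0.16 in prostate, ovary, skin and forebrain. Between skin and forebrain, 10 of 10 mitosis genes and 4 of 8 S phase genes were called higher in skin and 0 lower, against 23.4% and 21.2% of all genes. Between prostate and forebrain 9 mitosis genes were called higher in prostate and 0 lower (21.9% and 19.4% of all genes), and between ovary and forebrain 10 higher in ovary and 0 lower (24.6% and 12.4%). Stmn1, which neurons also express, ran the other way, at 6.71 ± 0.27 in forebrain and 2.58 ± 0.32 in prostate.

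**Figure D4:**
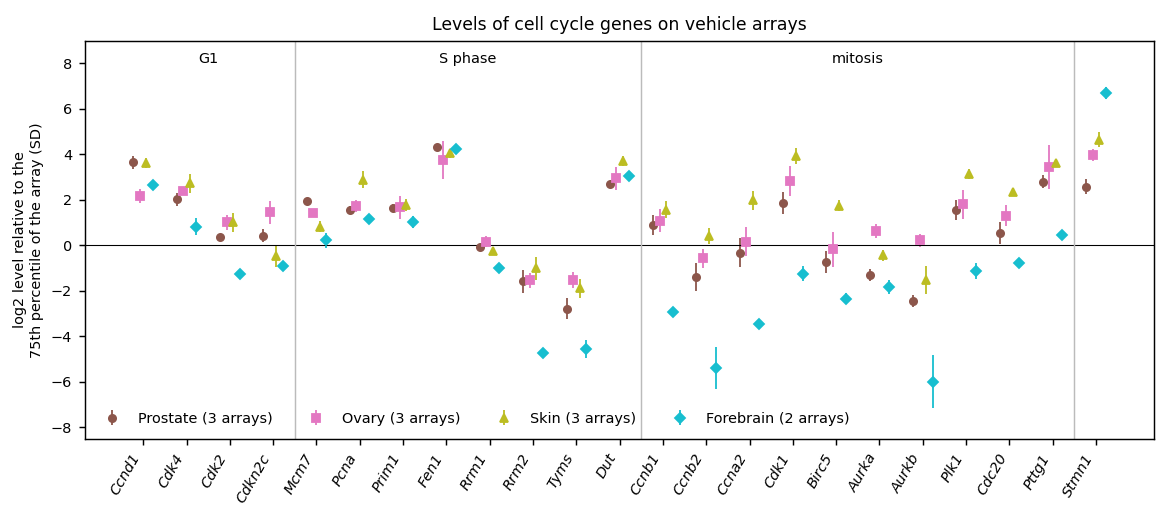
Log2 level relative to the 75th percentile of the array (y axis, bars are SD) of 23 cell cycle genes (x axis) on vehicle arrays of 4 tissues. Forebrain is lowest for the 10 mitosis genes, at -5.99 for Aurkb, and highest for Stmn1, at 6.71.

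Because the mitosis genes had values of one sign in prostate and in skin, their promoters were examined for the elements named above. The promoters are those of RefSeq on the GRCr8 assembly, from 250 bases before to 50 bases after the start, and 20 of the 23 members had one. All motifs were searched on both strands. The CHR element was taken as TTTGAA and its variant form as TTCGAA. The box bound by NF-Y was taken as CCAAT. The E2F site was taken in 4 forms, TTTCCCGC, TTTGGCGC, TTTCGCGC and TTTGCCGC. The androgen response element was taken as 2 inverted copies of AGAACA with 3 bases between them. The last 150 bases before the start are shown for 4 mitosis genes and, for contrast, 2 S phase genes, with the letters of the motifs in capitals.
Cdk1: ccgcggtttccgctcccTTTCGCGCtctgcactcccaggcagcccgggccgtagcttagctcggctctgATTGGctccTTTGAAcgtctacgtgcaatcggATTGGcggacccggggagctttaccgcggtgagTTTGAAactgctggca
Cdc20: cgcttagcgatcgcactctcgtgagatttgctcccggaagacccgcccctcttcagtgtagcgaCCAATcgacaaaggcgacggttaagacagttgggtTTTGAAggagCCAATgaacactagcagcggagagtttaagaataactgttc
Pttg1: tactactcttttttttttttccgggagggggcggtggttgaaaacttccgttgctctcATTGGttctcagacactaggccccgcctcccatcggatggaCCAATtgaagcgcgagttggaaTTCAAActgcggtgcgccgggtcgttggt
Ccnb1: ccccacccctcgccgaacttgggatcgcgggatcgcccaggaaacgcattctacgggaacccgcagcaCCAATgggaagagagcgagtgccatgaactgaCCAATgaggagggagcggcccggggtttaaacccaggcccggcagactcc
Tyms: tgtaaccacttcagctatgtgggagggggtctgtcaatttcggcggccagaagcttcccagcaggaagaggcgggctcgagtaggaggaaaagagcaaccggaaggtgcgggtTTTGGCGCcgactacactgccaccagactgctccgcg
Fen1: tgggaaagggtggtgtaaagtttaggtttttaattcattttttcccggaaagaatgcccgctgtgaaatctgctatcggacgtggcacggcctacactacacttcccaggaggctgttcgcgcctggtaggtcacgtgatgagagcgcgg

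These stretches lie upstream of their genes at chr20:19265143-19265292 (Cdk1, plus strand), chr5:137255800-137255949 (Cdc20, minus strand), chr10:28406327-28406476 (Pttg1, minus strand) and chr2:33655226-33655375 (Ccnb1, minus strand). Those of Tyms and Fen1 lie at chr9:120776084-120776233 and chr1:216274397-216274546, both on the minus strand. Cdk1 shows 2 CHR and 2 CCAAT matches and 1 E2F match, while Cdc20 and Pttg1 show 1 CHR and 2 CCAAT matches each. Ccnb1 shows 2 CCAAT matches and no letters of CHR in this window. Tyms shows 1 E2F match, and Fen1, the S phase gene with a positive value in prostate, shows none of the motifs.

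Over the full 300 bases, CHR letters were found in 6 of the 8 mitosis members with a promoter (75%) and in 3 of the 8 S phase members (37.5%), against 19.7% of all 33469 promoters. CCAAT was found in 7 of 8 (87.5%) and 4 of 8 (50%), against 37.5% of all. E2F letters were found in 1 of 8 mitosis and 2 of 8 S phase members, against 2.14% of all. Among the listed genes with a promoter, on the array or not, CHR was found in 14 of 19 mitosis genes (73.7%) and E2F letters in 7 of 14 S phase genes (50%). The androgen response element was found in 0 of the 20 promoters, against 0.0149% of all. CHR and CCAAT are short and frequent, a match is a description of letters and not of a bound site, and a missing match says only that these letters are not in this window.

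**Figure D5:**
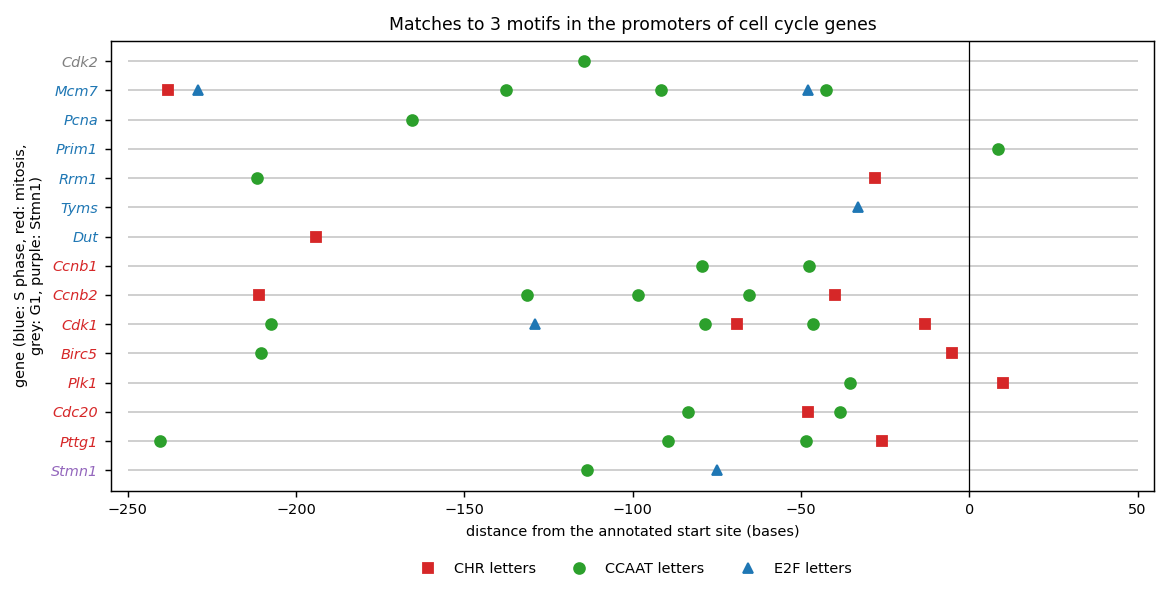
Positions of matches to the CHR, CCAAT and E2F letters (red squares, green circles and blue triangles) relative to the annotated start site (x axis, bases) in the 15 member promoters with a match (y axis). Of the matches in mitosis genes, 6 of 8 to CHR and 10 of 15 to CCAAT lie within the 100 bases before the start.

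Other cell cycle genes were taken from a second list of 102, of which 38 were on the array. In prostate 37 of them were tested and 5 were called, 3 lower and 2 higher (4.61% and 5.03% of all genes). None was called in ovary, skin or forebrain, where no gene of the array was (0%). Wee1, the kinase that holds Cdk1 inactive, fell by 1.62 ± 0.21 (adjusted p 0.0102, limma), from 2.84 ± 0.24 to 1.22 ± 0.29 (SD, n = 3 each). Cdkn2b, an inhibitor of Cdk4 and Cdk6, fell by 1.17 ± 0.19 (adjusted p 0.0169), and Lig1, the ligase that joins Okazaki fragments, fell by 1.05 ± 0.18 (adjusted p 0.0198). Orc6, a subunit of the origin recognition complex, rose by 1.07 ± 0.18 (adjusted p 0.0191), and Kif2c, a kinesin that takes apart microtubules at centromeres, rose by 1.38 ± 0.25 (adjusted p 0.0246). Of the 15 mitosis genes tested in this list, 12 had negative values in prostate, with a median of -0.70. In skin 15 of 16 did, with a median of -1.33, in ovary 2 of 16, with a median of 0.41, and in forebrain 9 of 13, with a median of -0.09.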

How the data were processed

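Each sample was 1 rat Agilent one-colour array, and the deposited intensity values are the scanner's processed signals, from which background had been subtracted (per the file headers, in version 10.5.1.1 of the scanner maker's software, Feature Extraction). Control spots and outlier spots were dropped, log2 was taken, and the 75th percentile of each array was subtracted. Probe accessions were matched to symbols in a RefSeq table of the GRCr8 assembly (10813 of 41012 probes matched). A gene was represented by its brightest kept probe, and a probe was kept if well above background on 3 arrays of a fit. The brightest probe was chosen within each fit, so Rrm2, Ccnd1 and Prim1 had another probe in the skin fit than in the other fits by tissue. Each tissue was fitted with limma 3.58.1 in R 4.3.3, with Benjamini-Hochberg adjustment over all genes tested; fits across tissues took slide as a random block. The fits were run on simulated data with independent noise for each gene and array. That simulation held no slide effect and no shift of a whole array, so it cannot show how these act here. The genes and lists were chosen with earlier results of these data known. Values per array are given, in each tissue, for up to 8 members with the smallest unadjusted p under 0.05, for Rrm1, Rrm2 and Ccna2, and for Cdk1, Pcna, Ccnd1 and Cdk4, while of the second list the genes that passed the threshold are named. Alternatives were quantile normalization, normexp on the median signals (offset 50, planned on the mean signals), no filter, the mean of probes, array weights, the replicate number as a block and leaving out arrays.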

Additional observations from a re-analysis of the deposited data

Results flagged for a closer look

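The effect of DHT on Aurka differed between the 4 tissues by limma's moderated F test, with an adjusted p of 0.0426. Its log2 fold change was negative in skin (-1.51) and prostate (-0.59), near 0 in forebrain (-0.10) and positive in ovary (0.10), and no pair of tissues passed the threshold alone. Ovary alone came from intact females, which the test cannot separate from tissue. The call was the only one among the 23 members in that fit, which called 1.83% of 33846 genes. No member was called without the slide block (1.18% of all genes), nor in 18 of the 23 fits that left out 1 array.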

How the results depend on the processing

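No member was called in the fits by tissue (9.64% of all genes in prostate, 0% in the other tissues). With array weights 7 were called in prostate (21.8% of all genes) and 11 in ovary (26.3%), where the medians became 0.84 (all members), 0.57 (S phase) and 1.21 (mitosis). In prostate 1 was called with the 75th percentile over all spots, an alternative chosen after seeing the data (Fen1, adjusted p 0.0485; 9.9% of all genes), and 1 in a single fit of all arrays with slide as a random block (Rrm2, adjusted p 0.0466; 3.51%). Leaving out 1 array gave 0 to 3 calls in prostate, in fits that called 2.43% to 11.9% of all genes. With normexp background 1 was called in forebrain (Cdk1, adjusted p 0.0477; 1.9% of all genes), and its mitosis median was -0.43. With the mean of all kept probes, the forebrain median was -0.12 and that of its S phase genes 0.0216, and Rrm2 in forebrain (0.024) and Rrm1 in ovary (-0.43) also changed sign. With forebrain vehicle array 3, the S phase median was 0.0855, the mitosis median -0.56, Pcna 0.048 and Cdk4 0.0334. Leaving out 1 forebrain array gave -0.23 to -0.0433 for S phase and -0.53 to -0.10 for mitosis genes, and 3 of these fits held 8 mitosis genes, without Ccnb2 and Aurkb. Ccnd1 in skin ranged from -0.30 to 0.0209 when 1 array was left out. The test between tissues called 0 members without the slide block, with normexp, without the filter or without ovary, 19 with array weights (55.5% of all genes), and 0 to 10 without 1 array (10 without ovary vehicle array 2, where 30.3% of all genes were called, and 4 without skin DHT array 2, with 2.13%). The cause of these shifts was not tested.

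The replicate numbers did not pair the samples: vehicle and DHT arrays of one number had correlations of -0.43 to 0.012. With the replicate block no gene was called in any tissue (0% of all genes), members included. The member medians were -0.59, 0.42, -1.20 and -0.22 in prostate, ovary, skin and forebrain. The mitosis genes were negative in 10 of 10 cases in prostate and in skin under all 15 settings tried in each. These settings share the same arrays, so the count is no independent support. Without the filter, with the replicate block and in the fit of all arrays the mitosis medians did not move, at -1.33 in prostate and -1.74 in skin. With 3 arrays a group at most, and dim probes such as those of Aurkb and Ccnb2 in forebrain, small differences were not detectable here.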
